A study of Bos taurus with 8 samples.

Results

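The nuclear genes of oxidative phosphorylation were followed in bovine peripheral blood mononuclear cells (PBMCs) with and without lipopolysaccharide (LPS). They were taken as every gene whose symbol begins with NDUFA, NDUFB, NDUFC, NDUFS, NDUFV, UQCR, COX4, COX5, COX6, COX7, COX8 or ATP5, together with SDHA, SDHB, SDHC, SDHD and CYC1. This rule uses names and no measured value, and it found 93 of the 21861 genes in the expression tables. Of these, 39 belong to complex I by prefix (NDUFA4 and NDUFAB1 included), 8 are NDUFAF assembly factors, 4 belong to complex II, 9 to complex III, 15 to complex IV and 18 to complex V. Blood of 4 lactating Holstein females aged 2 years was pooled and split into 4 portions, of which 1 received no LPS and the others 2 µg/ml LPS at 37 °C for 2 h, 4 h or 8 h. PBMCs were isolated after the treatment, so the cells met LPS in whole blood, and each portion gave 1 single-cell RNA-seq and 1 single-cell ATAC-seq library. The portion without LPS has no stated incubation time, so elapsed time and LPS cannot be told apart. All 3 LPS comparisons also share that 1 library.

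Oxidative phosphorylation is the last stage of respiration and runs in the inner mitochondrial membrane. Complex I takes electrons from NADH and complex II takes them from succinate, complex III passes them to cytochrome c, and complex IV hands them to oxygen, while complexes I, III and IV pump protons that complex V uses to make ATP. Most subunits are encoded in the nucleus and imported, whereas a small set, with no member in complex II, is encoded in mitochondrial DNA, so the assembled complexes draw on both genomes. In macrophages and dendritic cells exposed to LPS, a shift from respiration to glycolysis is a well known feature, and lymphocytes use respiration both at rest and when activated.

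The cells kept numbered 7821, 9865, 7387 and 3411 (no LPS, 2 h, 4 h and 8 h, the order used for every set of 4 values below), with 38503367, 47875879, 40160248 and 16657841 UMIs, a UMI being 1 counted RNA molecule. Cells were sorted into 4 classes by marker RNA. The CD14 class needed at least 2 UMIs of CD14 and none of CD3E, MS4A1 or NCR1, and the other 3 classes needed at least 1 UMI of their own gene, none of the other 2 and fewer than 2 of CD14. The CD14 class (monocyte gate) held 707, 308, 117 and 66 cells, the CD3E class (T cell gate) 3629, 5003, 3895 and 1641, the MS4A1 class (B cell gate) 1764, 2436, 1926 and 729, and the NCR1 class (NK cell gate) 63, 99, 90 and 38. Between 18.4% and 27.5% of cells entered no class. Summed over 8 monocyte markers the CD14 class had 8704 to 15148 CPM (UMIs of a gene per 1000000 UMIs of the library or class) and 8.41 to 20.4 CPM of 8 T cell markers, while the NCR1 class had 2212 to 2681 CPM of NK cell markers but also 439 to 529 CPM of T cell markers. The CD3E class had 1514 to 1675 CPM of its own markers with 16.2 to 119.5 CPM of monocyte markers, and the MS4A1 class 2143 to 2724 CPM of B cell markers. Pairs of libraries shared 6 to 21 barcodes, at most 0.352% of the smaller library. With 1 library for each treatment no test is possible. All intervals are 95% and cover counting error only, and a gene with at least 200 UMIs over both libraries is called higher or lower here when its CPM + 1 was at least 25% above or 20% below the other, which is 0.32 on the log2 scale. Values given as log2 ratios are on this log2(CPM + 1) scale, with a range for the counting error after each.

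As a share of all RNA, the 93 genes gave 1.56, 1.57, 1.68 and 1.73% of UMIs. The classes were far apart. The MS4A1 class had the highest share, 1.9, 1.84, 1.87 and 2.03%, and the CD3E class came next with 1.67, 1.64, 1.69 and 1.68%. In the NCR1 class the genes took 1.52, 1.45, 1.47 and 1.54% of UMIs. The CD14 class had the lowest share in every library, 0.99, 0.665, 0.728 and 0.938%, and its lowest value was at 2 h. Its counting interval was 0.99% (0.982% to 0.997%) without LPS and 0.665% (0.657% to 0.674%) at 2 h, so the intervals were apart. In the CD3E class, by contrast, the 4 libraries spanned 1.64% to 1.69%. The denominator also differed between classes, as ribosomal protein genes took 39.7, 39.3, 38.8 and 39.9% of UMIs in the CD3E class and 5.3, 4, 4.69 and 5.21% in the CD14 class. With ribosomal protein UMIs left out of the total, the share was 1.05, 0.693, 0.764 and 0.99% in the CD14 class, 2.77, 2.69, 2.76 and 2.79% in the CD3E class and 3.04, 2.88, 2.99 and 3.29% in the MS4A1 class, so the order of these 3 classes stayed and the gap was wider. Counted per cell, the 93 genes gave 94.3, 77.1, 70.6 and 90.5 UMIs in the CD14 class and 73.3, 72.2, 86 and 88.8 in the CD3E class. Per cell the CD14 class was thus not the lowest in the libraries without LPS, at 2 h and at 8 h. All genes together gave 9525, 11588, 9702 and 9641 UMIs per cell in the CD14 class and 4388, 4418, 5096 and 5287 in the CD3E class.

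**Figure D1:**
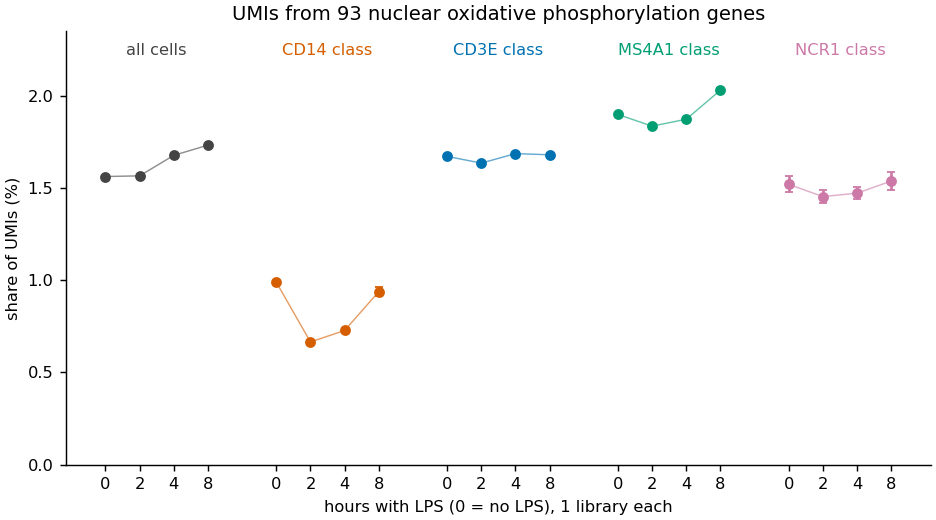
Share of UMIs (%) from the 93 genes in all cells and in each gated class, for the libraries without LPS and at 2 h, 4 h and 8 h; bars show exact 95% counting intervals of 1 library each. The CD14 class lies lowest in every library, between 0.665% and 0.990%, and the MS4A1 class highest, between 1.84% and 2.03%.

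Over all cells the 93 genes moved little. Of the 90 genes with at least 20 UMIs over both libraries, the median log2 ratio to no LPS was 0.01 (-0.05 to 0.07) at 2 h, 0.12 (0.05 to 0.20) at 4 h and 0.13 (0.04 to 0.23) at 8 h, where the range in parentheses is the median of the genes' own limits. The median of all genes measured was -0.03, 0.02 and 0.10. At 4 h the sign turned to -0.02 when each class was given its share of the library without LPS, and at 8 h scaling by DESeq2 size factors, which moved the median of all genes by -0.11, left a member median of 0.01. Among 86 genes with at least 200 UMIs, 2 were higher at 2 h, 7 at 4 h and 18 at 8 h, against 10.6%, 17.6% and 20.2% of all genes so filtered. By DESeq2 size factors the 18 became 9, against 10.5% of all genes. A single gene was lower at each time, ATP5PB, against 15.9%, 17.2% and 11.8% of all genes. The 3 genes COX4I2, COX6A2 and NDUFA4L2 had fewer than 20 UMIs over any pair of libraries, and COX6B2, COX7B2, COX8B and NDUFAF2 had fewer than 200. At 1.5-fold 1, 3 and 6 genes were higher (3.73%, 5.65% and 4.45% of all genes) and 0 lower (6.46%, 9.05% and 6.72%), and at 2-fold 0, 1 and 0 were higher (1.13%, 1.56% and 0.497%) and 0 lower (2.79%, 4.68% and 3.33%). By the first limit the set held fewer lower calls than genes at large at every time and fewer higher calls at 2 h and 4 h. The genes at large were not matched for depth. The members' median percentile by UMIs was 91.9 to 92.3 among genes with at least 20 UMIs in a library. The part of depth in these counts was not tested. The CD14 class was 9.04%, 3.12%, 1.58% and 1.93% of the cells kept and gave 17.5%, 7.46%, 2.83% and 3.82% of UMIs, while its UMIs per cell, given above, were not lower with LPS.

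Within classes the pattern split. In the CD14 class the median was -0.70 (-1.0 to -0.42) at 2 h, -0.53 (-0.90 to -0.14) at 4 h and -0.15 (-0.58 to 0.32) at 8 h, beside -0.56, -0.20 and -0.05 for all genes. Of 73 genes with enough UMIs 68 were lower at 2 h and 0 higher (62% and 13% of all genes), at 4 h 52 of 71 were lower and 0 higher (38.9% and 18.5%), and at 8 h 15 were lower and 9 higher of 71 (27.8% and 18%). All genes had shifted down as well, and this shift moved with the scaling. DESeq2 size factors raised the all-gene median by 0.53 at 2 h and 0.17 at 4 h, and the lower calls were then 15 at 2 h, 38 at 4 h and 15 at 8 h, beside 20.2%, 27% and 27.8% of all genes. Against the all-gene median under the same scaling, the members stood at -0.15, -0.33 and -0.10 by CPM and at -0.11, -0.31 and -0.10 by DESeq2. Without the upper limit of 3000 genes per cell the CD14 class grew to 793, 342, 132 and 89 cells, the lower calls were 55 of 79, 42 of 77 and 16 of 77 beside 56.3%, 36.3% and 23.4% of all genes, and the members stood at 0.00, -0.20 and -0.04 from all genes. The distance from all genes was thus largest at 4 h under each of these settings. At 2 h by DESeq2 the 15 of 73 genes are close to the share of all genes, while at 4 h the 38 of 71 are above it. With 66 cells the 8 h values have the widest intervals.

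The CD3E class stayed near 0, with medians of -0.02, 0.02 and -0.06, beside -0.02, -0.01 and 0.04 for all genes. At 8 h its members stood at -0.09 from all genes by CPM and at -0.10 by DESeq2. Without the upper limit on genes this distance was -0.08. In the CD14 class the distance at 8 h was -0.10 by CPM. No gene was higher and none was lower at 2 h of 85 (6.33% and 7.44% of all genes), 3 were higher and 0 lower at 4 h of 85 (9.26% and 9.38%), and 9 were higher and 0 lower at 8 h of 84 (10.8% and 4.96%). In the MS4A1 class the medians were -0.05, -0.02 and 0.07, and the first 2 became 0.08 and 0.09 with DESeq2 size factors, which moved the all-gene median there by 0.12 and 0.11. All genes there had medians of -0.12, -0.09 and 0.01 by CPM. Members stood at 0.07, 0.07 and 0.05 from all genes by CPM and at 0.08, 0.08 and 0.05 by DESeq2. Without the upper limit on genes these distances were 0.03, 0.01 and 0.11. Higher and lower calls in the MS4A1 class were 6 and 8 of 84 at 2 h (17.2% and 25% of all genes), 7 and 6 of 84 at 4 h (18.8% and 25.8%), and 15 and 3 of 82 at 8 h (15.2% and 14.6%). By DESeq2 they were 10 and 4 at 2 h (25.1% and 16.4%) and 17 and 2 at 4 h (26.5% and 19.3%), so at 2 h the balance of higher and lower turned. The NCR1 class was shallow, and its medians were 0.01, -0.08 and -0.01, beside 0.02, 0.01 and 0.00 for all genes. Its higher and lower calls were 1 and 2 of 16 at 2 h (21.3% and 6.56% of all genes), 2 and 1 of 20 at 4 h (17.2% and 7.69%) and 1 and 2 of 9 at 8 h (15.2% and 13.1%).

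**Figure D2:**
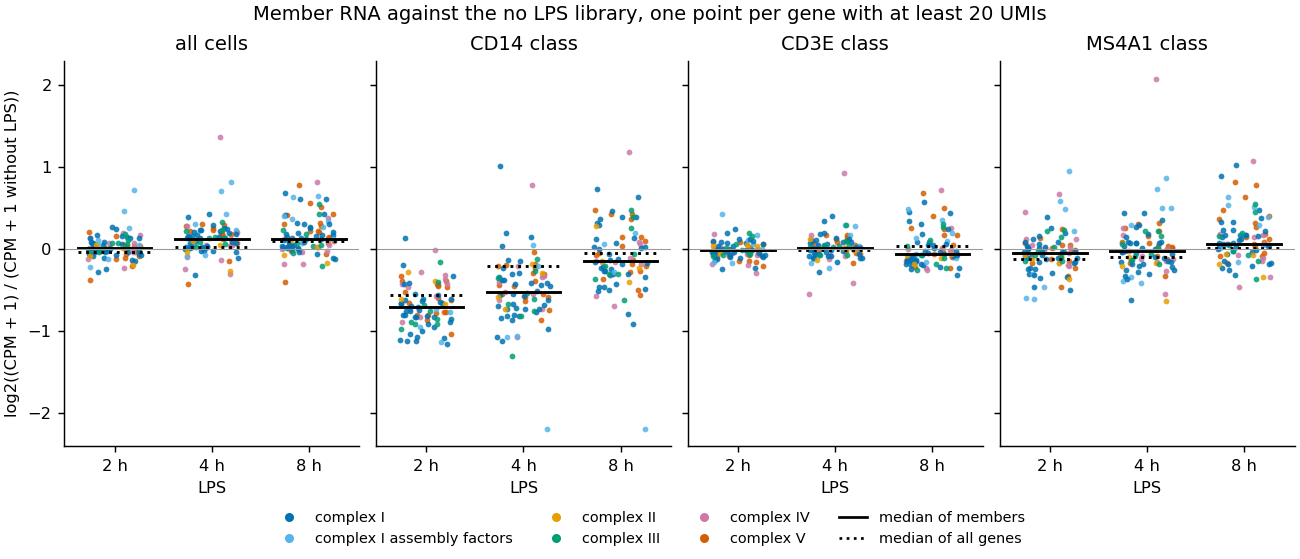
Log2 ratio of each member to the library without LPS at 2 h, 4 h and 8 h, for all cells and the CD14, CD3E and MS4A1 classes; each point is a gene with at least 20 UMIs over both libraries, the solid line is the members' median and the dotted line that of all genes. In the CD14 class the members' median is -0.70 at 2 h and -0.15 at 8 h, and the lowest points there at 4 h and 8 h are NDUFAF5 with 0 UMIs, whose value depends on the pseudocount.

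Complex I, the largest complex, had all-cell medians of 0.00, 0.12 and 0.13 over 38 genes, which ran from -0.28 to 0.27 at 2 h, -0.31 to 0.43 at 4 h and -0.12 to 0.68 at 8 h. Its core subunit NDUFS1, an iron-sulfur protein of the arm that takes electrons from NADH, stood at 16.8, 15.2, 17.9 and 21 CPM, with the highest value at 8 h. NDUFV1, which binds NADH, was level over all cells at 61.1, 62.6, 62 and 63.3 CPM. In the MS4A1 class NDUFS1 was lower at 2 h, with a log2 ratio of -0.50, and NDUFV1 was lower at 4 h, at -0.36. The CD3E class had -0.05 for NDUFS1 at 2 h and -0.06 for NDUFV1 at 4 h, inside the limit. NDUFS8, another iron-sulfur subunit, stood at 125, 103, 100.4 and 123 CPM and was among the 5 largest decreases at 2 h and at 4 h, with a log2 ratio of -0.31 (-0.38 to -0.25) at 4 h, just inside the limit of 0.32. The 4 libraries of the MS4A1 class put NDUFS8 at 198, 144, 129 and 175 CPM, lower at 2 h and at 4 h, where the log2 ratio was -0.62 (-0.73 to -0.52). In the CD3E class it was 116, 98.6, 95.6 and 105 CPM. Both lymphocyte classes had it highest without LPS and lowest at 4 h.

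At 8 h 5 subunits of complex I were higher over all cells, NDUFA1, NDUFA12, NDUFA3, NDUFB1 and NDUFC1, and others such as NDUFB5 and NDUFB11 lay below 0, at -0.11 and -0.12. NDUFB1 stood at 101, 85.2, 102 and 156 CPM over all cells and was higher at 8 h by 0.62 (0.55 to 0.69) on the log2 scale. It was the highest at 8 h in each of the 3 larger classes, at 89.1, 83.5, 93.2 and 133 CPM in the CD3E class, 97, 94.7, 119 and 199 CPM in the MS4A1 class and 136, 82.7, 101 and 189 CPM in the CD14 class. NDUFB2 was 73.7, 88.8, 99.7 and 80.2 CPM with its peak at 4 h, and its locus overlaps BRAF in the annotation. NDUFB4, among the 5 largest increases at 2 h without passing the limit, was 111, 131, 135 and 133 CPM. NDUFA12 was low at 11.6, 12.4, 15.5 and 19.3 CPM and higher at 4 h and at 8 h, while NDUFA1 was 213, 202, 238 and 285 CPM, NDUFA3 115, 105, 132 and 177 CPM and NDUFC1 96.5, 106, 115 and 129.7 CPM, each higher at 8 h alone. NDUFA4, which carries a complex I name although it is now placed with complex IV, was 553, 544, 582 and 624 CPM. Its relative NDUFA4L2 gave 2, 3, 5 and 2 UMIs in whole libraries and no level can be read from that.

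The NDUFAF genes, which help build complex I and are not part of it, held the clearest early change. Their all-cell medians were 0.08, 0.27 and 0.36 over 8 genes, beside -0.03, 0.02 and 0.10 for all genes. At 8 h all of the NDUFAF genes lay above 0, from 0.07 to 0.65, as did the median of all genes. NDUFAF3, the lowest of them at 8 h, lay below 0 in every class. It stood at -0.28 in the CD14, -0.16 in the CD3E, -0.16 in the MS4A1 and -0.03 in the NCR1 class. With the CD14 class left out, NDUFAF1, NDUFAF4 and NDUFAF7 stood at 0.22, 0.16 and 0.24 at 8 h, inside the limit. In the CD14 class at 2 h NDUFAF4, NDUFAF6 and NDUFAF8 stood at -0.76, -0.73 and -1.14, beside a median of -0.56 for all genes. NDUFAF4 stood at 12.7, 21.6, 23.2 and 16.4 CPM over all cells, so that 2 h and 4 h were high and 8 h lay between them and no LPS, with log2 ratios of 0.72 (0.61 to 0.92), 0.82 (0.71 to 1.03) and 0.35 (0.15 to 0.59). In the MS4A1 class it was 20, 39.5, 37.4 and 20.8 CPM, and at 8 h it was back near the level without LPS. In the CD3E class NDUFAF4 was 14.5, 16.5, 17.8 and 16.8 CPM, inside the limit throughout. NDUFAF6 was 9.25, 13.2, 15.7 and 15.1 CPM over all cells and higher at every time, with 11.8, 18.1, 20.3 and 17.2 CPM in the MS4A1 class and 12, 13.1, 14.9 and 15.7 CPM in the CD3E class. NDUFAF8 was 46.2, 55.4, 62.7 and 55.8 CPM over all cells and 51, 71.8, 72.7 and 62.7 CPM in the MS4A1 class. NDUFAF1, a core factor of the assembly of complex I, was 9.58, 10, 12.1 and 12.6 CPM and higher at 8 h. NDUFAF7, a methyltransferase, was 5.53, 4.6, 5.18 and 7.62 CPM, among the largest decreases at 2 h with a log2 ratio of -0.22 (-0.55 to 0.01) whose interval reached past 0, and higher at 8 h. In the annotation NDUFAF1 overlaps NUSAP1, NDUFAF3 overlaps IMPDH2 and NDUFAF7 overlaps PRKD3, so their reads may be shared.

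Complex II, which is also an enzyme of the citric acid cycle, had medians of -0.04, 0.01 and -0.03 over 4 genes. SDHA, its flavoprotein, was 100.4, 94.5, 97.9 and 95.5 CPM, and the membrane anchors SDHC and SDHD were 97.5, 98.6, 101 and 99 CPM and 92.5, 95.6, 99.2 and 99.95 CPM. These 3 genes kept inside the limit. SDHB, the iron-sulfur subunit, was 165, 144, 137 and 146 CPM over all cells and differed by class. It stood at 318, 248, 204 and 251 CPM in the MS4A1 class, lower at 2 h, 4 h and 8 h with log2 ratios of -0.36 (-0.44 to -0.29), -0.64 (-0.72 to -0.56) and -0.34 (-0.45 to -0.24), and at 103, 106, 102 and 98.5 CPM in the CD3E class. Its level in the MS4A1 class was above the CD3E class in all 4 libraries, and the gap was smallest at 4 h. The log2 ratio between these classes was 1.62 (1.54 to 1.72) without LPS and 0.99 (0.91 to 1.08) at 4 h.

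Complex III had medians of 0.06, 0.14 and 0.07 over 9 genes, which ran from -0.03 to 0.18 at 2 h, 0.03 to 0.33 at 4 h and -0.20 to 0.55 at 8 h. UQCRC1, a core protein of the matrix side, was 98.1, 96.1, 100.3 and 94.8 CPM, and UQCRFS1, the Rieske iron-sulfur protein, was 163, 176, 169 and 141 CPM with its lowest value at 8 h. CYC1, or cytochrome c1, was 137, 144, 152 and 140.2 CPM. These 3 catalytic or core genes did not pass the limit at any time. The small subunit genes UQCRQ, at 98.5, 112, 124 and 133 CPM, and UQCR11, at 225, 228, 264 and 330.1 CPM, were higher at 8 h, and UQCRQ also at 4 h.

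Complex IV had medians of 0.02, 0.05 and 0.05 over the 13 of its 15 genes with at least 20 UMIs. COX4I1, the ubiquitous form of subunit 4, was 955, 1006, 991 and 839 CPM and among the largest decreases at 8 h, with a log2 ratio of -0.19 (-0.22 to -0.16). It was lower at 8 h in the MS4A1 class, at 1017, 1024, 957 and 739 CPM and a log2 ratio of -0.46 (-0.52 to -0.40), and inside the limit in the CD3E class at 1125, 1117, 1072 and 941 CPM. COX4I2, the isoform known from lung and hypoxic tissue, gave 1, 1, 0 and 0 UMIs. A count of 0 allows up to 0.0747 CPM at 4 h and 0.18 CPM at 8 h. COX5A was 343, 377, 418 and 374 CPM, COX6A1 361, 365, 374 and 373 CPM, COX6B1 223, 191, 203 and 228 CPM and COX8A 303, 296, 311 and 327 CPM. COX6B1 was among the largest decreases at 2 h and 4 h without passing the limit. COX4I1 shares its locus with EMC8 in the annotation, and without stated strand use reads of the overlap cannot be placed.

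The tissue-restricted isoforms were near 0 but not alike in where their few UMIs lay. COX6A2, the heart and muscle form, gave 1, 2, 0 and 0 UMIs, and all 3 were in the CD14 class. COX6B2, known from testis, gave 32, 33, 22 and 14 UMIs, of which 83 of 101 were in the CD3E class and 3 in the MS4A1 class. COX8B gave 29, 47, 41 and 15 UMIs, with 96 of 132 in the MS4A1 class and 16 in the CD3E class, although the CD3E class holds more cells. COX7B2 gave 59, 60, 42 and 25 UMIs, of which 99 of 186 were in the CD3E class and 55 in the MS4A1 class. Counts this low in sums over whole libraries describe a few molecules and not a level per cell. COX6B2 overlaps GARIN5B and COX8B overlaps NBAS in the annotation, so their UMIs may be shared.

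COX7A1, the isoform of subunit 7a known from heart and skeletal muscle, had the largest ratio among the 86 genes at 4 h and at 8 h. It stood at 21.2, 24.4, 56.2 and 38.1 CPM, with log2 ratios of 0.20 (0.07 to 0.34) at 2 h, 1.37 (1.29 to 1.52) at 4 h and 0.82 (0.69 to 1.0) at 8 h. The 4 h value was the highest and the 2 h value lay near that without LPS. In the MS4A1 class it was 18.8, 30.6, 82.6 and 40.5 CPM, higher at all 3 times and highest at 4 h with a log2 ratio of 2.08 (1.89 to 2.39). In the CD3E class it was 21.9, 21, 42.7 and 36.6 CPM, with no increase at 2 h and a log2 ratio of 0.93 (0.78 to 1.15) at 4 h. The CD14 class had 16, 16, 28.2 and 37.7 CPM from few cells. Its ubiquitous counterpart COX7A2 did not share the pattern, with 424, 429, 397 and 374 CPM over all cells, 315, 358, 354 and 316 CPM in the CD3E class and 384, 524, 458 and 435 CPM in the MS4A1 class. COX7A1 thus had its peak at 4 h in both lymphocyte classes, and COX7A2 was higher at 2 h in the MS4A1 class.

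Complex V, the ATP synthase, had medians of -0.01, 0.18 and 0.22 over 18 genes, of which 8, 16 and 15 lay above 0. The medians of all genes were -0.03, 0.02 and 0.10, so at 8 h genes at large lay above 0 too. DESeq2 size factors moved that all-gene median by -0.11 at 8 h. The catalytic head genes ATP5F1A and ATP5F1B were 251, 258, 307 and 307 CPM and 243, 249, 277 and 267 CPM, neither past the limit. Its proton-carrying ring is built from 1 protein encoded by ATP5MC1, ATP5MC2 and ATP5MC3. These were 103, 119, 125 and 127 CPM, 274, 259, 316 and 370.1 CPM and 361, 357, 373 and 379 CPM, with ATP5MC2 higher at 8 h. ATP5IF1, the inhibitor that stops the enzyme from running backwards, was 197, 183, 226 and 229 CPM over all cells and 245, 178, 246 and 249 CPM in the MS4A1 class, where 2 h was low and the other 3 libraries lay together. ATP5MPL, a small subunit of the membrane part, at 150.04, 152, 186 and 258 CPM, had the largest ratio at 8 h after COX7A1, 0.78 (0.73 to 0.84), and its class levels were 164, 155, 186 and 264 CPM in the CD3E class and 168, 184, 208 and 297 CPM in the MS4A1 class. ATP5ME was 267, 246, 313 and 394 CPM, ATP5MD 177, 176, 193 and 253 CPM and ATP5F1E, the epsilon subunit of the stalk, 767, 761, 895 and 1021 CPM, each higher at 8 h. ATP5F1D, the delta subunit of the same stalk, was 160.5, 139, 145 and 153 CPM over all cells and among the largest decreases at 4 h without passing the limit there. In the MS4A1 class its log2 ratios were -0.32, -0.33 and -0.08, just past the limit at 2 h and 4 h. The CD14 class had -0.76, -0.87 and -0.50, lower at each time, beside -0.56, -0.20 and -0.05 for all genes. In the CD3E class they were -0.16, -0.17 and -0.23, inside the limit. ATP5ME overlaps MYL5 in the annotation, so its reads may be shared.

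ATP5PB, a subunit of the stalk that holds the enzyme's head in place, was the single gene lower at every time over all cells. It stood at 281, 216, 209.5 and 213 CPM, with a log2 ratio of -0.38 (-0.42 to -0.34) at 2 h. Its levels within classes were 558, 427, 411 and 529.6 CPM in the CD14 class, 181, 172, 181 and 167 CPM in the CD3E class and 221, 212, 218 and 209 CPM in the MS4A1 class, so it was far highest in the class whose share of UMIs fell from 17.5% to 7.46% between the libraries without LPS and at 2 h. With the CD14 class left out, an alternative chosen after these values were seen, it was 222, 199, 204 and 201 CPM with log2 ratios of -0.16, -0.13 and -0.15, and no longer past the limit. The genes then lower were NDUFAF7 at 2 h and NDUFS8 at 4 h. The higher genes without the CD14 class numbered 2, 5 and 13, against 8.78%, 11.6% and 11.7% of all genes, and the lower ones 1, 1 and 0, against 15.8%, 17.5% and 8.06%. Each of the higher genes was also among those of all cells.

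At 8 h the higher genes of the CD3E class were ATP5MD, ATP5ME, ATP5MPL, COX7A1, NDUFA1, NDUFA12, NDUFA3, NDUFAF6 and NDUFB1. Those of the MS4A1 class were ATP5F1E, ATP5MC1, ATP5MC2, ATP5MD, ATP5ME, ATP5MPL, COX7A1, NDUFA1, NDUFA12, NDUFA3, NDUFA5, NDUFB1, NDUFC1, UQCR11 and UQCRQ, and its lower genes were COX4I1, SDHB and UQCRH. The log2 ratio of ATP5MPL was 0.68 (0.61 to 0.77) in the CD3E class and 0.82 (0.71 to 0.94) in the MS4A1 class. For NDUFB1 it was 0.57 (0.46 to 0.69) and 1.03 (0.89 to 1.18), and for NDUFA3 0.44 (0.35 to 0.53) and 0.38 (0.25 to 0.51). The number of higher genes in the CD3E class was close to the share of all genes. Both comparisons use cells of the same pair of libraries, and the 8 h library had the fewest cells and the largest ungated share, 27.5%. At 4 h the higher genes of the CD3E class were COX7A1, NDUFB2 and NDUFV3, and none was lower. Those of the MS4A1 class were COX7A1, NDUFA12, NDUFAF4, NDUFAF6, NDUFAF8, NDUFB2 and NDUFC1. Its lower genes at 4 h were ATP5F1D, NDUFAF3, NDUFB10, NDUFS8, NDUFV1 and SDHB. These 7 higher and 6 lower of 84 were below the shares of all genes, 18.8% and 25.8%, as were the 3 higher of 85 in the CD3E class, beside 9.26%.

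**Figure D3:**
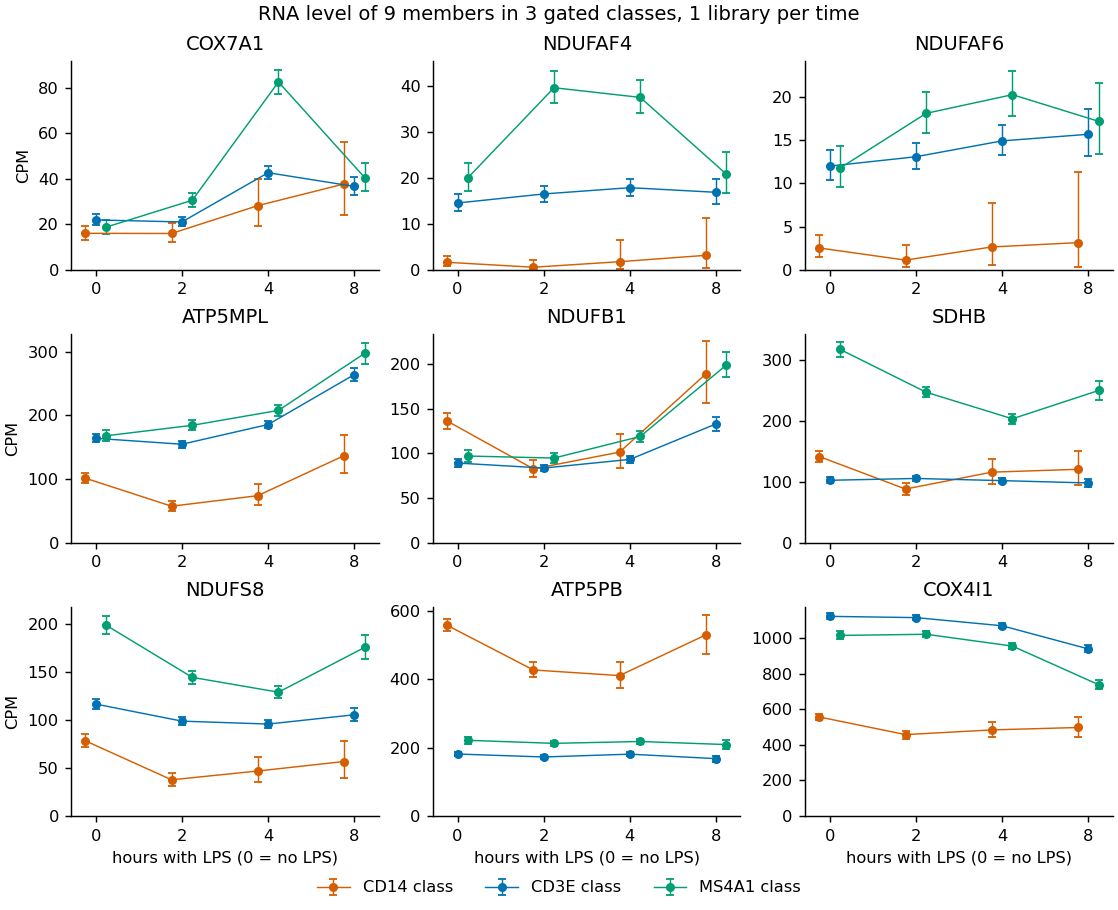
Levels (CPM) of 9 genes in the CD14, CD3E and MS4A1 classes without LPS and at 2 h, 4 h and 8 h; points are single libraries and bars are 95% counting intervals. COX7A1 peaks at 4 h in the MS4A1 class at 82.6 CPM, NDUFAF4 is high there at 2 h and 4 h, ATP5MPL and NDUFB1 are highest at 8 h in all 3 classes, and ATP5PB is highest in the CD14 class in each library.

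Within the CD14 class, where the medians of all genes were -0.56, -0.20 and -0.05 and rose by 0.53 at 2 h and 0.17 at 4 h with DESeq2 size factors, the complexes differed. Complex I stood at -0.76, -0.56 and -0.16, complex II at -0.50, -0.43 and -0.19, complex III at -0.85, -0.61 and -0.21, complex IV at -0.43, -0.47 and -0.15 and complex V at -0.61, -0.41 and -0.06. At 2 h complexes I, III and V were below the median of all genes and complexes II and IV above it, and at 4 h all 5 were below it. NDUFB7, an accessory subunit chosen as an example after its values were seen, was 102, 46.2, 78.4 and 86.4 CPM and NDUFS8 78.1, 37.5, 46.7 and 56.6 CPM. A gene that did not follow, chosen likewise, was the complex I core subunit NDUFV2 at 139, 153, 143 and 139.9 CPM, with log2 ratios of 0.13, 0.03 and 0.00. COX4I1 was 557, 458, 485 and 498 CPM and COX7A2 718, 534, 542 and 651 CPM. Among the genes at or above no LPS again at 8 h, NDUFB10 was 38.2, 24.4, 29.1 and 47.1 CPM and UQCRH, the hinge protein of complex III, 110.04, 83.2, 91.6 and 145 CPM, both of them genes that are low in this class and high in lymphocytes. Their values in the CD3E class were 608, 591, 562 and 513 CPM and 745, 715, 709 and 691 CPM. Summed T cell markers in the CD14 class ranged from 8.41 to 20.4 CPM and B cell markers from 14.3 to 53.4 CPM, with CD3E and MS4A1 at 0 by the gate, and 3 neutrophil markers stood at 82.3, 40.9, 104.8 and 37.7 CPM. The part of such other cells in these values was not tested.

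The classes already differed without LPS. Against the CD3E class, the CD14 class had a median log2 ratio of -0.93 (-1.11 to -0.73), beside -0.88 for all genes, and 67 of 84 genes were lower and 5 higher (62.5% and 24.2% of all genes). The medians were close, while the lower calls were more and the higher calls fewer than among all genes. Ribosomal protein genes had a median of -2.89. The lowest members were NDUFB10 at -3.96 (-4.18 to -3.82), UQCRH at -2.75 (-2.87 to -2.65) and NDUFA3 at -2.65 (-2.96 to -2.47). The highest were ATP5PB at 1.62 (1.55 to 1.69), COX7A2 at 1.19 (1.13 to 1.245) and NDUFB1 at 0.60 (0.49 to 0.73). ATP5PB and COX7A2 were higher in the CD14 class in all 4 libraries, and 60 genes were lower in all 4. Members with enough UMIs numbered 84, 84, 84 and 79. In the single libraries at 2 h, 4 h and 8 h 75.5%, 71% and 67.6% of all genes were lower and 16.5%, 17.8% and 20% higher. The share of all genes called in all 4 libraries was not computed, so these counts have no like background. UQCRH overlaps LRRC41 in the annotation.

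The MS4A1 class lay above the CD3E class, with a median of 0.25 (0.14 to 0.35) beside 0.08 for all genes, and 34 of 84 genes were higher and 3 lower (30.7% and 18.6% of all genes). The excess of higher genes was larger at 8 h, 47 of 83 against 33%, with 2 lower against 21.8%. SDHB led at 1.62 (1.54 to 1.72), then NDUFA13, also known as GRIM-19, at 0.83 (0.72 to 0.97) and NDUFS8 at 0.76 (0.67 to 0.87). All 4 genes of complex II were higher. On the lower side stood NDUFV3 at -0.55 (-0.68 to -0.43), ATP5F1E at -0.36 (-0.40 to -0.31) and NDUFB10 at -0.33 (-0.38 to -0.27). In all 4 libraries 22 genes were higher, among them ATP5F1A, ATP5F1B, COX5A, CYC1 and SDHB, and 1 was lower, NDUFV3. Members with enough UMIs numbered 84, 85, 85 and 83. In the single libraries at 2 h and 4 h 34 and 29 members were higher, beside 30.7% and 30.4% of all genes. Lower were 4 and 3 members, beside 25.5% and 25.4% of all genes. The higher calls were 40% and 34.1% of the members, so at 4 h they were near the share of all genes. The share of all genes called in all 4 libraries was not computed here either.

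The NCR1 class, of 63 cells without LPS, had a median of -0.22 against the CD3E class, with 33 of 82 genes lower and 7 higher (39.1% and 21% of all genes). Its lowest genes were NDUFAF4 at -1.90 (-7.51 to 0.29), ATP5MC1 at -1.26 (-2.12 to -0.56) and NDUFS8 at -1.11 (-1.90 to -0.44). The highest were COX7A1 at 0.64 (-0.36 to 1.52), ATP5F1D at 0.53 (0.19 to 0.87) and NDUFA4 at 0.43 (0.25 to 0.61). The intervals of NDUFAF4 and COX7A1 take in 0, so for them no difference was detectable at this depth.

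The subunits encoded in mitochondrial DNA did not move with the nuclear ones in the CD14 class. Their medians over 13 genes were 0.09, 0.16 and 0.31 over all cells, 0.17, 0.51 and 0.45 in the CD14 class, 0.01, 0.07 and 0.25 in the CD3E class and -0.15, -0.08 and 0.15 in the MS4A1 class, where DESeq2 size factors turned the 4 h value to 0.04. Of those measured in the CD14 class 2 of 13, 11 of 12 and 7 of 11 were higher at 2 h, 4 h and 8 h, against 13%, 18.5% and 18% of all genes, so that the count at 2 h was near that share, while the nuclear medians there were below 0 at each time. As a ratio of summed UMIs, the CD14 class had 0.743, 0.453, 0.406 and 0.587 nuclear UMIs for each mitochondrially encoded UMI. The same ratio was 0.694, 0.674, 0.694 and 0.643 in the CD3E class and 0.806, 0.855, 0.866 and 0.840 in the MS4A1 class. In the NCR1 class it was 0.771, 0.763, 0.736 and 0.712. This ratio does not depend on the scaling, and no class but the CD14 class had a value under 0.643. Cells with 20% or more of UMIs from mitochondrial genes had been removed before. Over all cells ND3 was 652, 743, 859 and 1275 CPM, ATP8 38.8, 39, 45.9 and 77.7 CPM and ND6 62.5, 70.9, 81.1 and 105 CPM, all highest at 8 h.

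**Figure D4:**
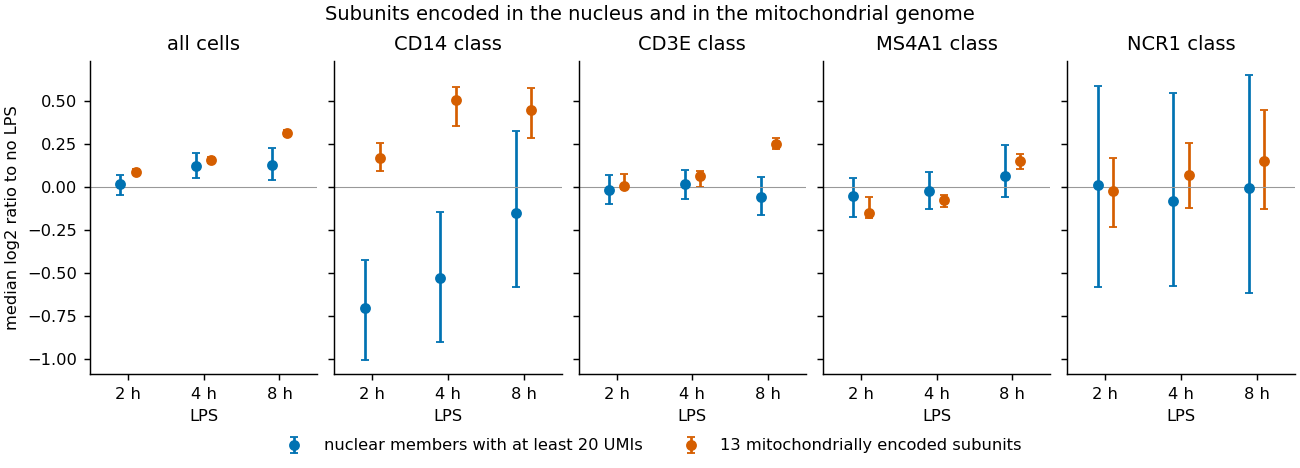
Median log2 ratio to the library without LPS of the nuclear genes and of the 13 mitochondrially encoded subunits at 2 h, 4 h and 8 h, by class, with intervals given by the medians of the genes' 95% counting limits. In the CD14 class the nuclear median is -0.70, -0.53 and -0.15 while the mitochondrially encoded median is 0.17, 0.51 and 0.45.

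Lists of related genes gave a measure of what else in the mitochondrion moved. Genes of the citric acid cycle, which feeds the chain, had all-cell medians of 0.06, 0.14 and 0.08, with 1, 2 and 1 of 13 higher and 0 lower, where 10.6%, 17.6% and 20.2% of all genes were higher and 15.9%, 17.2% and 11.8% lower. Regulators of mitochondrial biogenesis stood above them at 0.20, 0.26 and 0.32. Of these 3 of 11, 5 of 11 and 5 of 10 were higher and 0, 1 and 0 lower, against the same shares of all genes. TFAM, which packages and transcribes mitochondrial DNA, was 23.9, 27.6, 35.6 and 37 CPM, and TFB2M, a factor of mitochondrial transcription, 28.3, 42, 43.4 and 38.3 CPM. GABPB1, part of a factor that binds promoters of respiratory genes, was 14.3, 21.6, 22 and 18.1 CPM, and PPRC1, a coactivator, 10.2, 16, 16.9 and 15.5 CPM. ESRRA, a nuclear receptor of energy metabolism, had its lowest value at 4 h, with 40.6, 32.9, 31.3 and 38.4 CPM. PPARGC1A, the coactivator best known from muscle and brown fat, gave 0, 0, 0 and 0.12 CPM. Factors of complex IV assembly had medians of 0.06, 0.11 and 0.20, with 0, 1 and 3 of 12 higher, and the copper chaperone COX17 was 102, 89.9, 109 and 149.6 CPM. The medians of the oxidative phosphorylation genes lay below those of the biogenesis regulators at each time. Both are all-cell medians by CPM. The biogenesis list was not recomputed with the class mix of the library without LPS, which lowered the members' medians. Cytosolic ribosomal protein genes, given for comparison, had medians of 0.14, 0.23 and 0.19 and proteasome genes 0.11, 0.23 and 0.09.

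Chromatin accessibility was deposited as counts per gene and barcode, with a rule for assigning fragments to genes that is not given in the sources used here. Totals were 975012, 30250143, 26837579 and 11957904, with a median of 213, 5171, 5205 and 2250 per barcode, so the library without LPS was very shallow. In all, 75 of the 93 genes were listed in at least 1 library, and 73, 75, 75 and 73 in each. The 18 genes not listed were ATP5MG, ATP5MPL, ATP5PD, ATP5PF, COX4I2, COX7B2, COX8B, NDUFA11, NDUFAF5, NDUFAF7, NDUFB10, NDUFB3, NDUFB6, NDUFS3, NDUFS5, SDHD, UQCR10 and UQCRQ. The listed genes took 0.594, 0.535, 0.541 and 0.603% of counts. Among listed genes their median percentile was 52.6, 58.2, 57.5 and 55.3 by accessibility. By RNA it was 91.9, 92.2, 92.0 and 92.3, ranked among genes with at least 20 UMIs in the library. The RNA ranking held 90, 90, 90 and 88 members, so members and background differ between the rankings. Each against its own background, the genes ranked near the middle by accessibility and near the top by RNA, in every library.

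Against no LPS the accessibility medians were -0.13, -0.09 and 0.04, with -0.02 for all genes at each time, and 12, 11 and 14 of 73 genes were higher (26.8%, 25% and 20.9% of all genes) and 18, 14 and 11 lower (25.4%, 24.1% and 21.8%). As shares of the 73 genes, the higher calls were 16.4%, 15.1% and 19.2% and the lower calls 24.7%, 19.2% and 15.1%, so higher calls were fewer than among all genes at 2 h and 4 h and lower calls fewer at 8 h. All of these rest on the shallow library. The better covered libraries gave a tighter comparison. At 4 h against 2 h the median was 0.01, with 0 of 75 genes higher and 2 lower (2.36% and 6.51% of all genes). At 8 h against 2 h it was 0.12 (0.01 to 0.27) beside 0.00 for all genes, with 9 of 73 higher and 1 lower (9.49% and 23.5%). Cytosolic ribosomal protein and proteasome genes also lay above all genes in this comparison, with medians of 0.09 and 0.08.

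ATP5F1D stood apart. Its accessibility was 136, 21.1, 22.1 and 126 CPM, from 133, 637, 593 and 1512 counts, so the libraries without LPS and at 8 h were alike and those at 2 h and 4 h were low. The log2 ratio was -2.64 (-2.97 to -2.41) at 2 h and -0.11 (-0.37 to 0.16) at 8 h against no LPS, and 2.53 (2.45 to 2.72) at 8 h against 2 h. Its RNA over all cells stayed inside the limit, at 160.5, 139, 145 and 153 CPM. In the MS4A1 class its RNA had log2 ratios of -0.32, -0.33 and -0.08 at 2 h, 4 h and 8 h. Accessibility was summed over all barcodes and not split by class. NDUFAB1, the mitochondrial acyl carrier protein, stood at 22.6, 61.9, 54 and 52.9 CPM by accessibility, where the first value rests on 22 counts, and its RNA was 113, 124, 125 and 122 CPM. Of the genes that led by RNA, COX7A1 had 90.3, 67.7, 74 and 79.6 CPM by accessibility, NDUFAF4 154, 88, 97.7 and 115 CPM and SDHB 224, 189.9, 191 and 198 CPM. None of the 3 had its highest accessibility at 4 h, where RNA over all cells was highest for COX7A1 and NDUFAF4 and lowest for SDHB. All 3 were highest by accessibility in the shallow library without LPS, from 88, 150 and 218 counts. By accessibility COX4I1 was listed at 2 h and 4 h alone, with 143 and 77 counts, as was COX6A2 with 164 and 91. The libraries without LPS and at 8 h also listed fewer genes in all, 11658 and 11573, than those at 2 h and 4 h, 13821 and 13255. ATP5F1D followed the same split of the libraries, and the part of depth or listing in its values was not tested.

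**Figure D5:**
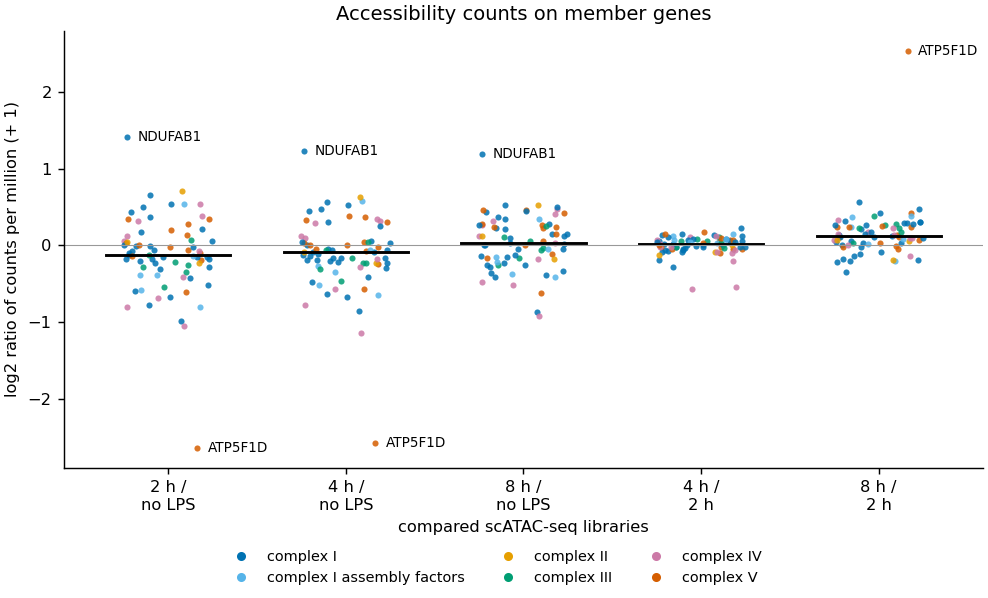
Log2 ratio of accessibility counts per gene (CPM with a pseudocount of 1) for the members in 5 comparisons of the ATAC-seq libraries. Each point is a gene. In each comparison a black line marks the members' median, and the grey line marks no change. ATP5F1D lies lowest at 2 h and 4 h against no LPS, at -2.64 and -2.57, and highest at 8 h against 2 h, at 2.53.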

How the data were processed

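For RNA, the authors deposited raw UMI counts of each gene in each barcode from Cell Ranger, with reads aligned to ARS-UCD1.2. Accessibility was deposited as counts of each gene in each barcode too. The rule that assigns fragments to genes is not given in the sources used here, and over 88% of the values are even. Cells were kept with 200 to 3000 genes and less than 20% of UMIs from mitochondrial genes, as the study states. Its limit of 200 UMIs, worded there as an upper one, was read as a minimum, since a cell with 200 genes holds no fewer UMIs. Its removal of genes found in under 3 cells was not applied. More cells per library were left than the study states. No doublet caller was run, and cells with gate genes of several classes were left ungated.

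The counts of each class in each library were added up, expressed as CPM and given a pseudocount of 1 for ratios. Per-gene ratios carry exact conditional binomial intervals and shares exact binomial intervals, at 95%. The intervals hold no pseudocount, so for genes of few UMIs the ratio lies off their middle. List medians used genes with at least 20 counts over both libraries, and the interval beside a median is the median of the genes' lower and upper limits. With 1 library per treatment and assay, no test was made and no p-value is given. The ratio step was run on simulated counts that held counting error alone, with no variation between libraries or in class mix. That run checks the computation and cannot measure such variation. Python 3.11.15, numpy 2.4.6, scipy 1.17.1, pandas 2.3.3 and R 4.3.3 were used, and edgeR 4.0.16 and DESeq2 1.42.0 gave scaling factors for alternatives. Other alternatives were the limits on cells, the gates, the fold, the pseudocount and the class mix.

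The genes, lists, gates and fold were chosen with earlier results of these data known. Genes named with values are core subunits, isoform pairs, the 5 largest increases and decreases at each time and the 3 largest differences in each direction between classes, and others are named from the lists of genes past the fold or, where said, after their values were seen. Of the 93 genes, 91 matched 1 gene of the RefSeq table (ARS-UCD2.0, used for names and neighbours), and 26 of these overlap another gene. Strand use in counting was not stated, so their reads may be shared. No gene sequence of the files' build was used.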

Additional observations from a re-analysis of the deposited data

Results flagged for a closer look

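In the 4 libraries, the median change of the 13 mitochondrially encoded subunits differed in direction between classes. At 2 h it was 0.17 on the log2 scale in the CD14 class and -0.15 in the MS4A1 class. At 4 h it was 0.51 in the CD14 class and 0.066 in the CD3E class, against -0.077 in the MS4A1 class. The difference was not tested, since each treatment has 1 library. With DESeq2 size factors the MS4A1 class stood at -0.02 at 2 h and 0.04 at 4 h, and the CD14 class at 0.74 and 0.69.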

How the results depend on the processing

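No paired analysis was possible because each treatment had 1 library per assay. Leaving out the CD14 class or the ungated cells, and counts of calls within classes under other settings, were chosen after seeing the data. The all-cell medians at 2 h, 4 h and 8 h were 0.080, 0.24 and 0.25 when ribosomal protein and mitochondrially encoded genes left the total, -0.10, -0.024 (below 0) and 0.014 with the class mix of the library without LPS, and -0.048, 0.020 and 0.039 without the CD14 class. At 4 h it was 0.036 with cells weighted equally, and at 8 h 0.00 by TMM (0.00047) and 0.0097 by DESeq2. At 1.5-fold the higher genes over all cells were 1, 3 and 6 and at 2-fold 0, 1 and 0, with 0 lower in each case. By TMM and by DESeq2 alike, 2 genes were lower at 4 h and 2 at 8 h, and 9 were higher at 8 h. None was lower at 8 h without the upper limit on genes (0) or without the CD14 class (0).

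In the CD14 class the 2 h median was -0.40 without the upper limit and -0.14 by DESeq2. In the MS4A1 class the DESeq2 medians were 0.078 at 2 h and 0.094 at 4 h. DESeq2 gave 2 higher and 15 lower genes at 2 h (32.9% and 20.2% of all genes) and 1 higher at 4 h (26.7%) in the CD14 class, where 1 was higher also without the upper limit (16.6%). It gave 1 lower at 8 h in the CD3E class (7.05%), and in the MS4A1 class 10 higher and 4 lower at 2 h (25.1% and 16.4%) and 17 higher and 2 lower at 4 h (26.5% and 19.3%).

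Without the upper limit the share of UMIs was 1.62%, 1.64%, 1.73% and 1.80% in all cells, 1.07%, 0.817%, 0.853% and 1.02% in the CD14 class, 1.76%, 1.73%, 1.78% and 1.78% in the CD3E class, 2.02%, 1.95%, 1.95% and 2.21% in the MS4A1 class, and 1.51% in the NCR1 class at 2 h. With at least 2000 UMIs per cell it was 1.57%, 1.58% and 1.69% in all cells without LPS, at 2 h and at 4 h, and 0.912% in the CD14 class at 8 h. The cause of these moves was not tested. The pseudocount, the gates, the minimum per gene and the accessibility settings left the values they touched within their counting intervals or 1.5 times the counts.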
